A study of Mus musculus with 20 samples.

Results

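The NF-kB subunits and their inhibitors were taken as the 10 rows of the count table whose gene symbol is Nfkb1, Nfkb2, Rel, Rela, Relb, Nfkbia, Nfkbib, Nfkbie, Nfkbiz or Tnfaip3, out of 21963 gene entries. All 10 were found once each and passed the filter on low counts, as 10 of the 11707 genes tested. RNA was sequenced from 20 cultures of bone marrow-derived macrophages, which are made by growing mouse bone marrow cells in medium that holds macrophage growth factor. Cells came from WT mice and from Mcu-/- mice, aged 15 to 25 weeks and of both sexes, and were left untreated or given zymosan, a yeast cell wall particle that engages Dectin-1 and TLR2, for 3 h at 2 particles per cell. The groups were WT untreated (n = 4), WT with zymosan (n = 5), WT with zymosan after loading with 10 µM BAPTA-AM, a membrane-permeant chelator of cytosolic Ca2+ (n = 4), Mcu-/- untreated (n = 4) and Mcu-/- with zymosan (n = 3). Mcu encodes the pore of the mitochondrial calcium uniporter, and its floxed allele was deleted by Cre under the Cx3cr1 promoter, a myeloid driver. Whether the WT mice carried the Cre is not given in the sources used here, and no BAPTA-AM was given to Mcu-/- cells. Libraries held 14420402 to 23954552 counts.

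NF-kB is a family of dimers built from RelA, RelB, c-Rel and the p50 and p52 proteins, which are cut from the precursors encoded by Nfkb1 and Nfkb2. IkB proteins hold the dimers in the cytoplasm until the IkB kinase marks them for destruction, and NF-kB then switches on its own inhibitors, so that the signal ends itself. In macrophages microbial particles set this loop off. All values here are RNA levels, and in bulk RNA a smaller number of cells of a type cannot be told apart from less RNA per cell.

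Stretches of sequence before the start sites were searched for the letters of the consensus that NF-kB dimers are known to bind. In mm10 the subunit genes lie at chr3:135584655-135691547 (Nfkb1), chr19:46304320-46312385 (Nfkb2), chr11:23736847-23770970 (Rel), chr19:5637483-5648130 (Rela) and chr7:19606217-19629438 (Relb). The inhibitor genes lie at chr12:55489410-55492647 (Nfkbia), chr7:28758251-28767512 (Nfkbib), chr17:45555703-45563169 (Nfkbie), chr16:55811375-55838899 (Nfkbiz) and chr10:19000910-19015657 (Tnfaip3). RefSeq windows on GRCm38.p6, from 250 bases before to 50 after an annotated start, were at hand for 7 of the 10 genes, in 10 windows, and were searched on both strands for the kappaB consensus (3 G, a purine, any 2 bases, 2 pyrimidines, 2 C). At least 1 match stood in windows of 5 genes, Nfkb2, Rel, Nfkbia, Nfkbie and Tnfaip3, against 9.55% of 27025 genes with such windows. The last 150 bases before the start are shown for 1 window each of Nfkbia, Nfkbie, Tnfaip3 and Rel, on the strand of the gene, because they show where a match stood in genes that rose between 5.88-fold (Rel) and 61.5-fold (Tnfaip3) with zymosan in WT cells. The start is the RefSeq one, and by GENCODE M21 the first 13 bases shown for Tnfaip3 and the last base for Rel lie in an exon of an annotated transcript of the same gene. Of the 3 Nfkb2 windows, the bases before the start lie in exons of other annotated Nfkb2 transcripts in 2, and none is shown. Capitals mark the matches, and matches that overlap run together.
Nfkbia (chr12:55492648-55492797, minus strand): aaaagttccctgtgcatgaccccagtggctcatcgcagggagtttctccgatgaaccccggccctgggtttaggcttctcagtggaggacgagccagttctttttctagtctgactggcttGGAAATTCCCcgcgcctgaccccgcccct
Nfkbie (chr17:45555550-45555699, plus strand): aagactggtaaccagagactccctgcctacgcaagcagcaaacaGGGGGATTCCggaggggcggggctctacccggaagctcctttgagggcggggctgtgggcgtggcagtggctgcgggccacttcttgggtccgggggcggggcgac
Tnfaip3 (chr10:19015411-19015560, minus strand): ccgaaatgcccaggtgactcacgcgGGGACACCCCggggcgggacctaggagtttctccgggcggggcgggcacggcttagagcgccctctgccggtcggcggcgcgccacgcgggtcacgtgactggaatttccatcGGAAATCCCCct
Rel (chr11:23770970-23771119, minus strand): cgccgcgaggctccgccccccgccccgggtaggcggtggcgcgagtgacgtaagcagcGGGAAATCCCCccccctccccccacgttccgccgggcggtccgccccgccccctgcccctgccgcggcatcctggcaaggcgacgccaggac
In Nfkbia the match ended 20 bases before the start, in Tnfaip3 the nearer match ended 3 bases before it, and in Nfkbie the single match ended 97 bases before it. Rel and Nfkb2 each held a pair of overlapping matches. No match stood in the windows of Rela and Nfkbib, which says only that these letters are not in those windows, and a match is a description and not a binding site.

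Before the results, 1 library has to be named. In untreated Mcu-/- replicate 4, 86.7% of the 7276 genes that differed between Mcu-/- and WT cells with zymosan were shifted from the untreated WT mean in the same direction as that difference, against 50.8% in replicate 1, 51.0% in replicate 3 and an even split in replicate 2. Tnfaip3 stood at 1890 normalized counts in replicate 4 and at 412, 580 and 487 in the others, and Nfkbie at 181 against 48.8, 60.8 and 55.7. Nfkbiz stood lower there, with 3365 against 5132, 5434 and 5351. The biological coefficient of variation of the fit was 12.4% with this library and 3.56% without it, so counts of calls that move when it is left out are given both ways. Its Mcu level (83.4 normalized counts) lay with the Mcu-/- libraries, while its fibroblast markers and Ikbkg, given further on, stood nearer to those of the Mcu-/- libraries with zymosan than to its own group. Whether it is mislabelled or came from another preparation was not tested. This doubt bears on every value that uses the untreated Mcu-/- group, the interaction included. The shifts that it shares with the Mcu-/- libraries with zymosan extend the doubt to Mcu-/- against WT cells with zymosan. Whether those libraries and replicate 4 had a preparation in common was not tested.

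**Figure D1:**
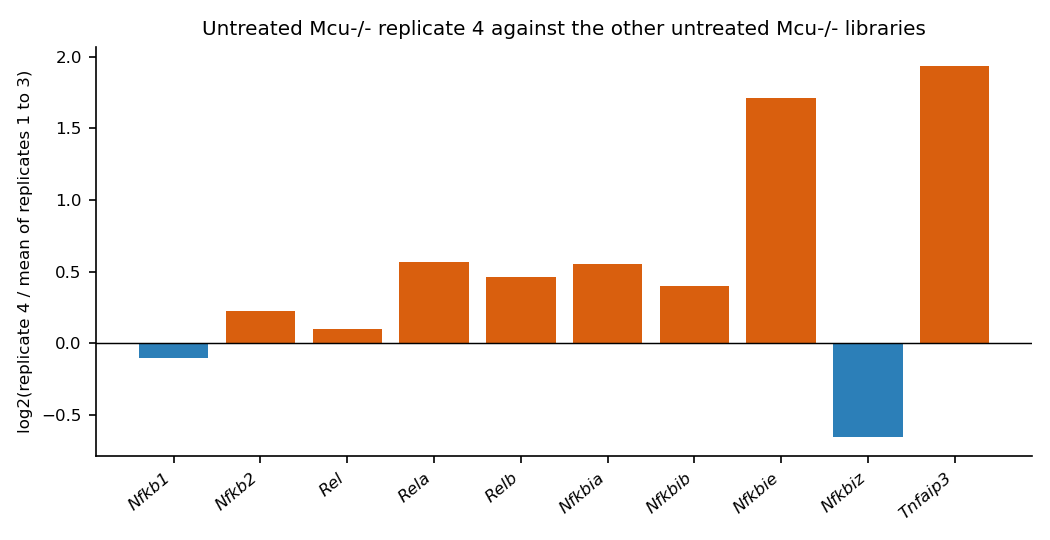
Log2 ratio of the normalized count in untreated Mcu-/- replicate 4 to the mean of untreated Mcu-/- replicates 1 to 3, 1 bar per gene (orange above 0, blue below). Tnfaip3 (1.94) and Nfkbie (1.71) stood highest and Nfkbiz (-0.66) lowest.

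Mcu itself was lower in every Mcu-/- library. It stood between 126 and 197 normalized counts in the 13 WT libraries and between 54.2 and 83.4 in the 7 Mcu-/- libraries, with no overlap. Reads of the gene that lie outside the deleted part can still be counted, so a remaining level is no measure of protein. The macrophage identity of the cultures was read from 8 markers, all detected, whose summed level was 8554 to 16389 CPM (scaled counts in a library set to 1000000), with Lyz2 the most abundant. The lowest value was that of untreated Mcu-/- replicate 4. Markers of neutrophils reached at most 5.32 CPM in sum, of NK cells 0.55, of mast cells and basophils 0.16 and of erythroid cells 0.66.

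With zymosan every one of the 10 genes rose in WT cells, from 2.80-fold for Nfkbiz to 61.5-fold for Tnfaip3. Over all genes tested 32.4% were higher and 36.8% lower, and the median log2 fold change was 2.73 in the members against -0.04 over all genes. No library of the treated group overlapped with the untreated group for any of the 10, where 33.1% of all genes lay higher without overlap, and each exact two-sided permutation p was 0.00794, the smallest that 4 against 5 libraries can give. The rises ran over a wide range, with the feedback inhibitors Tnfaip3 and Nfkbie at the top and Rela and Nfkbiz at the bottom.

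**Figure D2:**
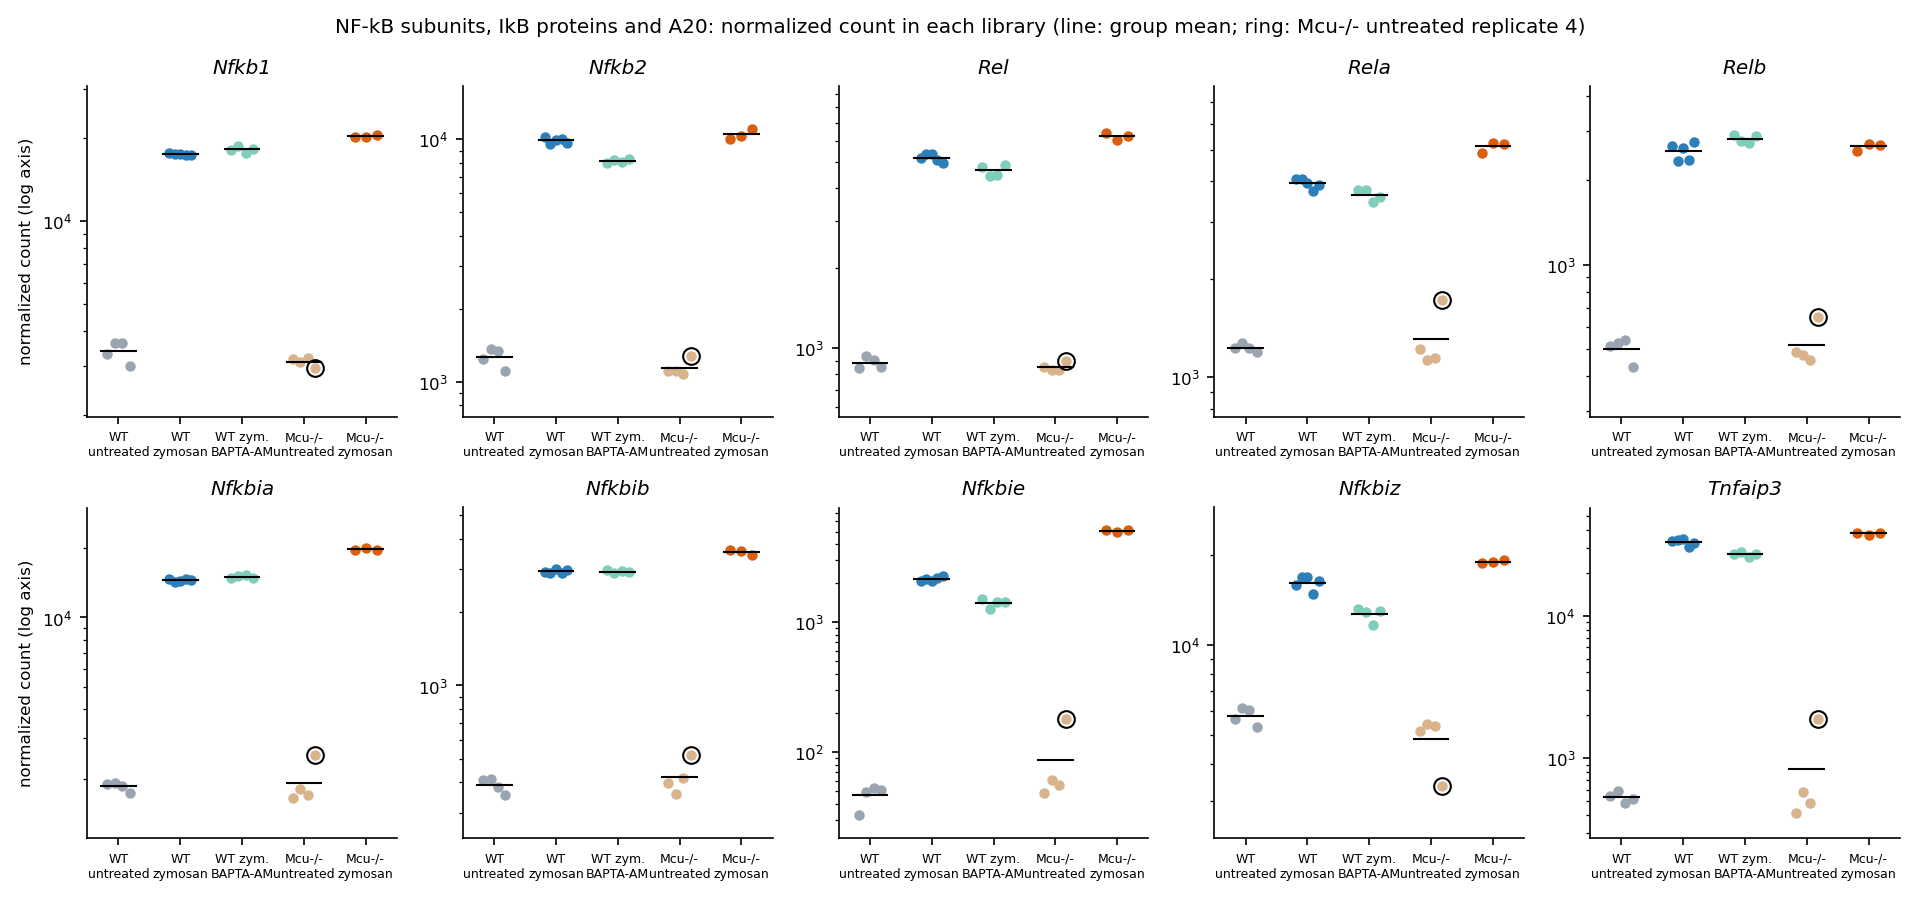
Normalized counts (log axis) of the 10 genes in each of the 20 libraries, grouped by genotype and treatment, with a line at each group mean and a ring around untreated Mcu-/- replicate 4. Zymosan raised all 10 in every group that received it, and Tnfaip3 went from 487 to 594 in untreated WT libraries to 30543 to 34418 with zymosan.

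Among the subunits, Nfkb1, the precursor of p50, stood at 3300, 3624, 3614 and 3007 normalized counts in the untreated WT libraries and at 17625, 17461, 17471, 17329 and 17283 with zymosan. The treated libraries were nearly alike and all far above the untreated ones, with 2.36 ± 0.05 (SE) as the log2 fold change (adjusted p = 3.93e-18 by edgeR's quasi-likelihood test, as throughout). Nfkb2, the precursor of p52 that partners RelB in the non-canonical branch, went from 1245, 1360, 1336 and 1104 to 10272, 9593, 9975, 10059 and 9630, a log2 fold change of 2.97 ± 0.06 (adjusted p = 3.93e-18). It thus had the largest fold of the 5 subunit genes. Part of its exons (299 bases) overlaps Psd on the other strand, which also went up in the same libraries (78.6 to 101 against 528 to 654 normalized counts), and the strand setting of the counting is not given in the sources used here. A noncoding gene on the other strand, AC114539.1, overlaps 531 of the Nfkb2 exon bases and has no row in the counts, so its level could not be read.

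Rel, which encodes c-Rel, a subunit used for cytokine genes such as Il12b, was at 844, 933, 903 and 854 untreated and at 5179, 5358, 5369, 5097 and 4950 with zymosan. The groups were widely apart, with a log2 fold change of 2.55 ± 0.05 (adjusted p = 3.03e-19). Relb rose from 511, 527, 539 and 430 to 2646, 2343, 2600, 2359 and 2733, a log2 fold change of 2.33 ± 0.09 (adjusted p = 3.10e-14). Rela, the gene of p65 and the main activating subunit of the canonical dimer, moved least of the subunits. It went from 1226, 1276, 1233 and 1193 to 4056, 4055, 3962, 3743 and 3888, a log2 fold change of 1.68 ± 0.09 (adjusted p = 5.13e-12).

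The 3 classical IkB genes differed in size of response. Nfkbia, the gene of the fast feedback inhibitor IkBα, rose from 1904, 1911, 1853 and 1739 to 14651, 14279, 14359, 14664 and 14564, a log2 fold change of 2.97 ± 0.09 (adjusted p = 1.28e-15). For Nfkbib, which encodes IkBβ, the counts were 409, 413, 384 and 354 untreated and 2911, 2905, 3001, 2902 and 2980 with zymosan. Its log2 fold change of 2.91 ± 0.08 (adjusted p = 6.77e-17) lay close to that of Nfkbia, and 14.5% of its annotated exon bases overlap Ccer2 on the other strand, a gene with at most 2.33 normalized counts. Sirt2 overlaps 42 of its exon bases on the other strand. That gene also went up in the same libraries (1607 to 1858 against 2496 to 2639 normalized counts). Nfkbie, the gene of IkBε, a later-acting feedback inhibitor, had the lowest start and the steepest rise of the 3. It was at 32.5, 49.0, 52.9 and 50.9 untreated and at 2088, 2138, 2070, 2208 and 2285 with zymosan, a 46.6-fold ratio of means and a log2 fold change of 5.54 ± 0.28 (adjusted p = 1.91e-12).

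Nfkbiz encodes IkBζ, an atypical nuclear IkB that works as a co-activator on secondary genes such as Il6, and its RNA was already high at rest. It was at 5659, 6146, 6075 and 5287 untreated and at 15947, 16883, 16939, 14853 and 16426 with zymosan, a log2 fold change of 1.48 ± 0.10 (adjusted p = 2.01e-10). Tnfaip3, the gene of A20, a ubiquitin-editing enzyme that shuts off the signal above the IkB kinase, rose the most. From 542, 594, 487 and 519 it reached 33505, 34075, 34418, 30543 and 32182, a log2 fold change of 5.94 ± 0.38 (adjusted p = 4.38e-11).

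Levels of different genes were compared only per length of annotated exon, as TPM (counts per exon base, scaled to a sum of 1000000). In untreated WT cells Nfkbiz (226 ± 16.4 TPM, SD) and Nfkbia (226 ± 9.49) stood highest and Nfkbie lowest (2.99 ± 0.62). After zymosan Nfkbia led with 1240 ± 9.41 TPM, Tnfaip3 had moved from the ninth place to the second with 628 ± 33.8, and Nfkbiz came next with 445 ± 26.7. Of the summed TPM of the 5 subunit genes, Rela made up 33.3% at rest and 20.6% with zymosan, and Nfkb2 22.8% and 34.6%. These places and shares depend on the length used: Nfkb1, whose exons join to 12061 bases while its longest transcript has 4149, ranked 4 at rest by the first length and 3 by the second. Per longest transcript Nfkb1 stood highest of the 5 subunit genes in WT cells, at 120 TPM at rest and 444 with zymosan. By that length Rela stood at 66.5 and 153 TPM and Nfkb2 at 48.1 and 272.

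Set against each other per length, IkB RNA gained on subunit RNA. The summed TPM of Nfkbia, Nfkbib and Nfkbie over that of the 5 subunit genes was 1.12 ± 0.04 in untreated WT cells and 1.78 ± 0.04 with zymosan. It stood at 1.92 ± 0.06 with BAPTA-AM and zymosan and at 2.18 ± 0.06 in Mcu-/- cells with zymosan, and the libraries of these 3 treated groups did not overlap (1.74 to 1.82, 1.88 to 2.01 and 2.11 to 2.23). In untreated Mcu-/- cells it was 1.08, 1.19 and 1.15 in replicates 1 to 3 and 1.36 in replicate 4. The sum is mostly Nfkbia, and the ratio is given as a description of RNA with no test. Its size depends on the length used: per longest transcript it was 0.738 in untreated WT cells and 1.17 in WT cells with zymosan.

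**Figure D3:**
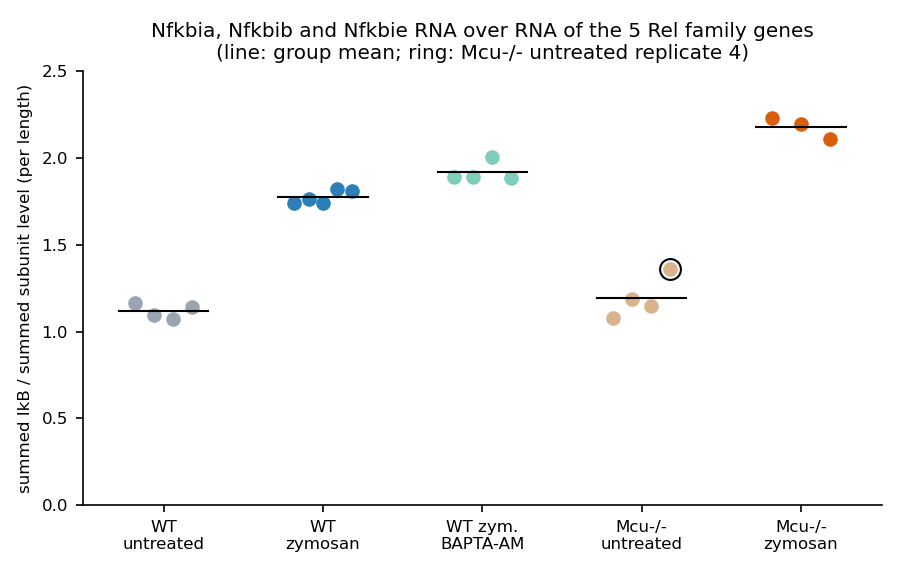
Ratio of the summed per-length RNA level (TPM) of Nfkbia, Nfkbib and Nfkbie to that of Nfkb1, Nfkb2, Rel, Rela and Relb, 1 point per library, with a line at each group mean and a ring around untreated Mcu-/- replicate 4. Untreated WT libraries lay at 1.07 to 1.16, and the Mcu-/- libraries with zymosan were highest at 2.11 to 2.23. Lengths are those of all annotated exons joined, and ratios per longest transcript were lower.

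At rest none of the 10 genes passed the test between untreated Mcu-/- and untreated WT cells, by edgeR or by DESeq2's Wald test, against 0.128% of all genes higher and 0.222% lower. At an unadjusted p under 0.05 there were 4 genes, Nfkb1, Nfkb2, Nfkbie and Nfkbiz, beside 14.9% of all genes in either direction. The libraries of the 2 groups overlapped for every member, where 7.09% of all genes had no overlap, and permutation p-values ran from 0.0857 to 0.971. Without replicate 4, where 1.53% of genes were higher and 1.83% lower, Nfkb2 fell by 0.21 on the log2 scale (adjusted p = 0.00711), its 3 remaining libraries at 1103, 1109 and 1075 against 1104 to 1360 in WT. Nfkbie had 46.3 ± 9.35 normalized counts in WT and 86.5 ± 63.0 in Mcu-/- cells, where the mean rests on replicate 4 (log2 fold change 0.89, adjusted p = 0.236, and 0.26, adjusted p = 0.470, without it).

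With zymosan, Mcu-/- macrophages held more RNA of several subunits and inhibitors than WT macrophages. Nfkb1, Rel, Rela, Nfkbia, Nfkbib and Nfkbie were called higher and none lower, 6 of 10, where 31.8% of all genes were higher and 30.3% lower. Nfkbie stood out by size, at 2.35-fold, while the other 5 were between 1.16-fold and 1.36-fold. Without untreated Mcu-/- replicate 4, a library that is not itself in this contrast but enters the estimate of spread, 9 of 10 were called higher, against 36.4% of all genes higher and 33.7% lower, and Relb was the one left out. The members' median log2 fold change was 0.25 in both fits, against 0.02 over all genes.

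**Figure D4:**
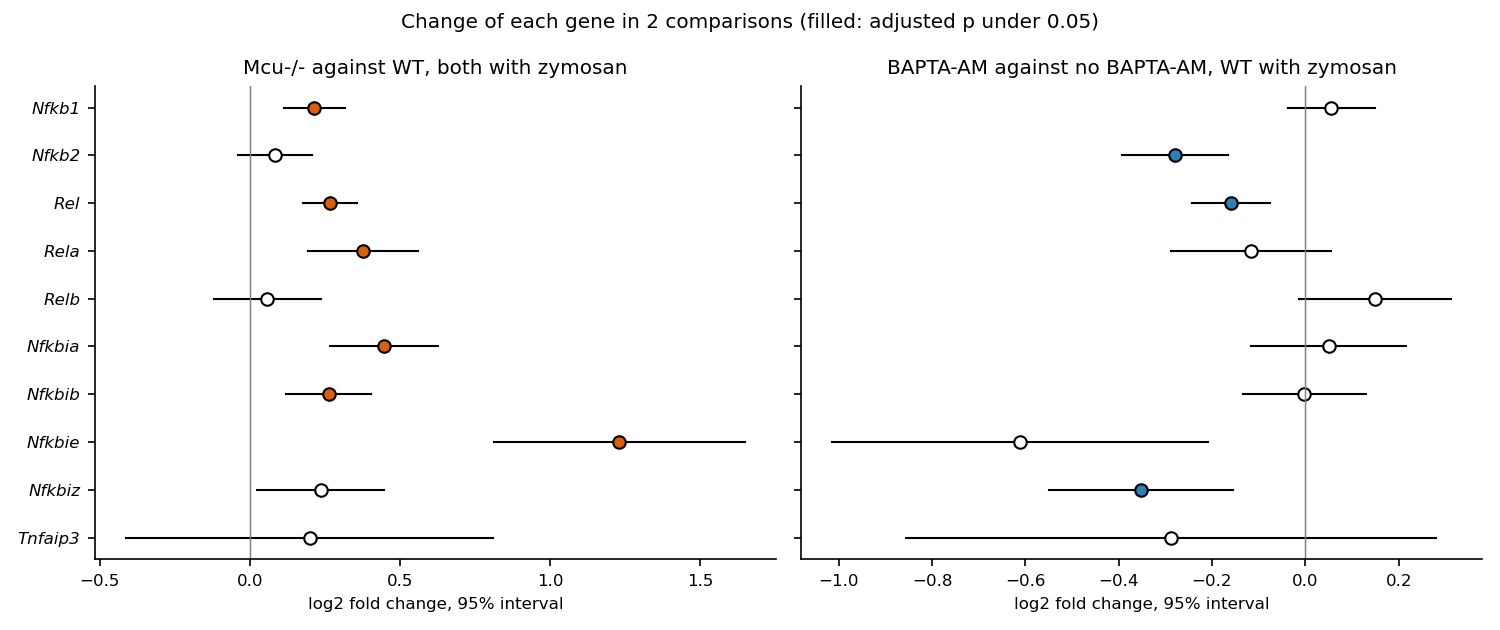
Log2 fold change of each gene with its 95% interval, in Mcu-/- against WT cells with zymosan (left) and in BAPTA-AM loaded against unloaded WT cells with zymosan (right), with points filled (orange higher, blue lower) for an adjusted p under 0.05. Nfkbie had the widest departure in both panels, 1.23 and -0.61, and the second did not pass the test.

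Nfkbie was at 5104, 4985 and 5101 normalized counts in the Mcu-/- libraries with zymosan, against 2070 to 2285 in WT. The 3 libraries were close together and far above the highest WT library, a log2 fold change of 1.23 ± 0.21 (adjusted p = 8.78e-05). Nfkbia was at 19657, 19989 and 19677 against 14279 to 14664, with no overlap and a log2 fold change of 0.45 ± 0.09 (adjusted p = 4.02e-04). Nfkbib, at 3585, 3555 and 3436 against 2902 to 3001, was 0.26 ± 0.07 higher on the log2 scale (adjusted p = 0.00458).

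Of the subunits, Rela differed most, with 4898, 5233 and 5223 in Mcu-/- cells against 3743 to 4056 in WT, a log2 fold change of 0.38 ± 0.09 (adjusted p = 0.00205). Rel was at 6420, 6054 and 6257 against 4950 to 5369, a log2 fold change of 0.27 ± 0.05 (adjusted p = 7.57e-05). Nfkb1, at 20061, 20160 and 20481 against 17283 to 17625, differed by 0.21 ± 0.05 (adjusted p = 0.00145). Neither of the non-canonical subunits passed the test. Nfkb2 was at 10077 to 11075 against 9593 to 10272 (log2 fold change 0.08, 95% interval -0.04 to 0.21) and Relb at 2549 to 2692 against 2343 to 2733 (0.06, -0.12 to 0.24), and for both the libraries overlapped.

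Nfkbiz and Tnfaip3 had libraries that did not overlap, yet did not pass the test over all 20 libraries. Nfkbiz was at 18911, 19009 and 19313 in Mcu-/- cells against 14853 to 16939, a log2 fold change of 0.24 ± 0.11 (adjusted p = 0.0664), and Tnfaip3 at 38271, 37081 and 38070 against 30543 to 34418, a log2 fold change of 0.20 ± 0.31 (adjusted p = 0.598). Exact permutation p was 0.0179 for each, the smallest that 3 against 5 libraries can give. The share of all genes without overlap is not given for this contrast, so lack of overlap in it is not read against all genes. Both were called without replicate 4 (adjusted p = 2.34e-06 and 1.07e-04), and within the untreated Mcu-/- group their normalized counts ran from 3365 to 5434 and from 412 to 1890.

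Fibroblast markers moved with this contrast. Their summed level was 45.7 to 53.5 CPM in the Mcu-/- libraries with zymosan, 28.8 CPM in untreated Mcu-/- replicate 4 and at most 7.50 CPM in all other libraries. Of the 5 markers Col1a2 (23.2 CPM in Mcu-/- with zymosan against 2.19 in WT with zymosan) and Col1a1 (21.7 against 2.03) made up most of it. Col3a1 was at 3.73 against 0.91, Pdgfrb at 1.65 against 1.03, and Dcn at 0.29 against 0.14 with at most 8 counts in any library. Summed macrophage markers were 10631 CPM in Mcu-/- and 16207 CPM in WT cells with zymosan, and the members went different ways. Lyz2 (3241 against 8181 CPM), Adgre1 (2839 against 4919) and Itgam (275 against 869) stood lower in Mcu-/- cells, while Cd68 (1158 against 309), Fcgr1 (573 against 212), Csf1r (1080 against 562), Cd14 (1389 against 1095) and Mertk (76.0 against 60.6) stood higher. B cell markers summed to 13.2 and 33.7 CPM (Cd79b 11.4 and 31.5), osteoclast markers to 49.9 and 105 CPM (Acp5 49.3 and 104) and T cell markers to 4.96 and 1.88 CPM (Cd28 4.94 and 1.87). Neutrophil markers summed to 0.59 and 4.51 CPM (S100a9 0.24 and 2.56). Endothelial markers summed to 27.1 and 46.3 CPM, with Pecam1 lower (15.4 against 41.9) and Cdh5 (7.05 against 1.37) and Kdr (4.68 against 3.05) higher in Mcu-/- cells. Dendritic cell markers lay at 10.5 to 11.5 CPM in Mcu-/- and 9.20 to 9.70 CPM in WT cells with zymosan. Dendritic cell markers moved with zymosan in WT cells, from 0.94 to 9.46 CPM, as did osteoclast markers, from 55.0 to 105 CPM. Sums of macrophage (13480 to 16207 CPM) and fibroblast markers (3.26 to 6.29 CPM) rose there as well. Those of B cell (54.7 to 33.7 CPM) and endothelial markers (53.5 to 46.3 CPM) fell, and for these cell types the libraries did not overlap. The part of these markers in the results was not tested.

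The response to zymosan within Mcu-/- cells again included all 10 genes, called higher with 34.3% of genes higher and 39.4% lower (39.2% and 42.4% without replicate 4). Tnfaip3 rose 44.9-fold and Nfkbie 58.5-fold by ratio of means, with replicate 4 lifting the untreated mean of both, and their log2 fold changes were 5.49 and 5.88 with it and 6.26 and 6.52 without it. The permutation p was 0.0286 for each gene, the smallest that 3 against 4 can give.

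The difference between the responses of the genotypes was tested as an interaction. It was positive and called for Nfkb1 (0.34 ± 0.07 on the log2 scale, adjusted p = 0.00172), Rel (0.32 ± 0.06, adjusted p = 0.00123), Nfkbia (0.39 ± 0.13, adjusted p = 0.0249) and Nfkbiz (0.50 ± 0.15, adjusted p = 0.0161), 4 of 10, where 15.2% of all genes were higher. Without replicate 4 it was called for 9 of 10, all but Relb, where 31.0% of genes were higher. The share of all genes with a negative interaction is not given. Nfkbie then had the largest difference, 0.97, against 0.34 (adjusted p = 0.524) with all libraries. The sign of Tnfaip3 turned, from -0.45 (adjusted p = 0.451) to 0.32 (adjusted p = 0.00134). The call of Nfkbia was lost without untreated Mcu-/- replicate 1, 2 or 3 or without Mcu-/- zymosan replicate 4 (adjusted p = 0.0552, 0.0513, 0.0559 and 0.0525) and when only the groups compared were fitted (0.0501). Nfkb2 (0.23, adjusted p = 0.0505) was called without WT untreated replicate 4 (adjusted p = 0.0103), with DESeq2 size factors (0.0426), with library totals (0.0457), with at least 10 counts in every library (0.0375) and by DESeq2's Wald test (0.0208). This test shares its treated libraries with the contrast above.

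All 10 genes still rose with zymosan in cells whose cytosolic Ca2+ was chelated. In BAPTA-AM loaded WT cells with zymosan against untreated WT cells all were called higher, as were 31.9% of genes while 34.2% were lower, with a median log2 fold change of 2.59 in the members and -0.03 over all genes. Untreated cells with BAPTA-AM were not analysed here. Against unloaded WT cells with zymosan, Nfkb2, Rel and Nfkbiz fell and no member rose, 3 of 10, where 6.33% of genes were lower and 6.43% higher.

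Nfkbiz was at 13264, 12864, 11683 and 12967 normalized counts with BAPTA-AM against 14853 to 16939 without it, and fell by 0.35 on the log2 scale (SE 0.10, adjusted p = 0.0258). Nfkb2 was at 8025, 8256, 8067 and 8299 against 9593 to 10272 and fell by 0.28 (SE 0.06, adjusted p = 0.00305). Rel, at 4788, 4445, 4474 and 4882 against 4950 to 5369, fell by 0.16 (SE 0.04, adjusted p = 0.0170). In none of the 3 did the groups overlap. The share of all genes without overlap is not given for loaded against unloaded cells, so lack of overlap there is not read against all genes. The calls of Rel and Nfkbiz were lost without BAPTA-AM replicate 2 (adjusted p = 0.0699 and 0.0579) or replicate 3 (0.0613 and 0.0833), and that of Nfkbiz also without BAPTA-AM replicate 4 (0.0543) or without WT zymosan replicate 2 (0.0556) or 3 (0.0568). Both were also lost with library totals (0.0989 and 0.0784) and with the replicate block (0.0561 and 0.0625), while that of Nfkb2 was kept in both.

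Among the inhibitors the values went different ways. Nfkbie was at 1512, 1261, 1436 and 1439 with BAPTA-AM against 2070 to 2285, a 0.65-fold ratio with no overlap (log2 fold change -0.61 ± 0.21, adjusted p = 0.0577, and 0.0374, 0.0460 and 4.17e-14 without untreated Mcu-/- replicate 1, 3 or 4). Tnfaip3 was at 25651 to 27998 against 30543 to 34418, also without overlap (-0.29 ± 0.29, adjusted p = 0.616). Nfkbia lay the other way by a small step, at 14794, 15081, 15277 and 14898 against 14279 to 14664 (0.05 ± 0.08, adjusted p = 0.800), and for each of these 3 the exact permutation p was 0.00794, the smallest possible. Nfkbib showed no detectable difference, with 2890 to 2973 against 2902 to 3001 and a 95% interval of the log2 fold change from -0.13 to 0.13.

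The remaining subunits overlapped between loaded and unloaded cells. Nfkb1 was at 17592 to 18679 with BAPTA-AM against 17283 to 17625 (log2 fold change 0.06), Rela at 3450 to 3769 against 3743 to 4056 (-0.12) and Relb at 2722 to 2890 against 2343 to 2733 (0.15). Without untreated Mcu-/- replicate 4, where 15.3% of all genes were higher and 16.5% lower, 6 members were called lower, Nfkb2, Rel, Rela, Nfkbie, Nfkbiz and Tnfaip3, and Relb was called higher. Both this comparison and that of the genotypes use the same 5 WT zymosan libraries.

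Markers of cell types moved with BAPTA-AM as well. Summed macrophage markers were 14317 to 14556 CPM in loaded and 16076 to 16389 CPM in unloaded cells with zymosan, without overlap, with Lyz2 at 7012 and 8181 CPM. Neutrophil markers summed to 2.41 to 3.36 against 3.39 to 5.32 CPM (S100a9 1.46 and 2.56) and dendritic cell markers to 5.73 to 7.24 against 9.20 to 9.70 CPM (Xcr1 6.15 and 9.03). Endothelial markers were at 37.9 to 39.6 against 44.1 to 48.4 CPM (Pecam1 34.9 and 41.9) and osteoclast markers at 88.8 to 96.6 against 99.2 to 118 CPM (Acp5 91.6 and 104). These 5 sums were each lower in every loaded library, those of the other 6 cell types overlapped, and their part in the results was not tested.

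In the order of the 5 group means, the untreated groups were the lowest pair for every gene and overlapped each other for all 10. Mcu-/- cells with zymosan were highest for 9 members, as for 29.3% of all genes, and for 8 of the 9 their libraries did not overlap with the next group (15.3% of all genes), the exception being Nfkb2. For Relb the BAPTA-AM group was highest, at 2722 to 2890 against 2549 to 2692 in Mcu-/- cells with zymosan. Nfkbie, Nfkbiz, Rel and Tnfaip3 showed the same order, BAPTA-AM below zymosan alone below Mcu-/- with zymosan, with no overlap between these neighbours, an order found in 4.91% of all genes. The contrasts that give this order share the WT zymosan libraries and were used above, so it is a description.

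Counts of calls in the pathway lists that follow are to be read against the shares of all genes already given, 32.4% higher and 36.8% lower for zymosan in WT cells, 31.8% and 30.3% for Mcu-/- against WT cells with zymosan, and 6.43% and 6.33% for BAPTA-AM loaded against unloaded WT cells. Counts without untreated Mcu-/- replicate 4 are to be read against 36.4% higher and 33.7% lower between the genotypes and 15.3% and 16.5% with BAPTA-AM.

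Of the IkB genes outside the members, Bcl3, Nfkbid and Nfkbil1, all 3 rose with zymosan in WT cells. Bcl3 and Nfkbid were lower in Mcu-/- than WT cells given zymosan, and both also fell in WT cells loaded with BAPTA-AM, while Nfkbil1 was called in neither comparison (log2 fold change -0.17, adjusted p = 0.114, and -0.18, adjusted p = 0.18). None of the 3 was called between the untreated genotypes. Bcl3, whose protein binds p50 and p52 homodimers in the nucleus, was at 908, 912 and 942 in Mcu-/- cells with zymosan against 1886 to 2246 in WT (log2 fold change -1.12 ± 0.09, adjusted p = 1.55e-08). Nfkbid, the gene of IkBNS, was at 506, 495 and 503 against 1006 to 1166 (-1.08 ± 0.13, adjusted p = 2.41e-06). Within Mcu-/- cells Bcl3 with zymosan (908 to 942) lay below untreated replicates 1 to 3 (991 to 1081) and above replicate 4 (770), while in WT cells it rose by 0.78. With BAPTA-AM, Bcl3 fell by 0.30 and Nfkbid by 0.36 (adjusted p = 0.0176 and 0.0488).

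Of 13 genes of the IkB kinase, related and upstream kinases and their adaptors, 8 rose and 3 fell with zymosan in WT cells. Map3k8, the gene of the kinase TPL2, rose by 1.47 and Tbk1 by 0.92 on the log2 scale, while Tab1, an adaptor of the kinase TAK1, fell by 2.48 and Nlk by 0.95. With zymosan 5 stood higher and 2 lower in Mcu-/- cells (6 and 2 without untreated Mcu-/- replicate 4). Ikbkg, the X-linked gene of the regulatory subunit NEMO, was at 3513, 3687 and 3650 in Mcu-/- cells with zymosan against 1114 to 1199 in WT (log2 fold change 1.65 ± 0.23, adjusted p = 8.82e-06). Untreated WT libraries lay at 1060 to 1132, and in untreated Mcu-/- cells it was at 1101, 1086 and 1048 in replicates 1 to 3 and at 2916 in replicate 4. G6pdx, which overlaps 418 of its exon bases on the other strand, stood lower in the same libraries (1931 to 2102 against 3473 to 3567 with zymosan). Chuk, which encodes the catalytic subunit IKKα, was 0.50 higher, whereas Ikbke, the gene of the related kinase IKKε, was 0.96 lower on the log2 scale (10396 ± 302 in WT and 5355 ± 273 in Mcu-/-) and Map3k14, the gene of NIK, the kinase of the non-canonical branch, was at 1381 ± 71.2 and 815 ± 32.5 (-0.76). With BAPTA-AM 4 of the 13 rose and none fell, among them Map3k3 (0.33) and Nlk (0.55). The median of the list was 0.11 between the genotypes and 0.04 with BAPTA-AM, and without untreated Mcu-/- replicate 4 the calls with BAPTA-AM were 5 higher and 2 lower.

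Of 12 genes of A20 partners, deubiquitinases and their cofactors, 10 rose and 1 fell with zymosan in WT cells, led by Usp18 (4.88), whose protein removes ISG15 rather than ubiquitin, and Tnip3 (4.25), and the one that fell was Itch, a ligase that works with A20 (-0.49). In Mcu-/- against WT cells with zymosan 2 were higher and 6 lower (3 and 7 without untreated Mcu-/- replicate 4), beside 31.8% and 30.3% of all genes. Tnip3, the gene of an A20-binding inhibitor, was at 13453 ± 200 normalized counts in Mcu-/- and 22492 ± 370 in WT cells with zymosan (log2 fold change -0.74 ± 0.07), and Tnip2, of the same family, at 602 ± 15.5 and 1139 ± 77.9 (-0.92 ± 0.07). The 2 that were higher were Otud7b (0.74) and Itch (0.60). With BAPTA-AM 2 of the 12 rose, Itch (0.28) and Otulin (0.25), and 3 fell, with Tnip3 0.37 and Tnip2 0.31 lower. The list's median was -0.12 between the genotypes with zymosan and -0.16 with BAPTA-AM. Another list of 17 genes held ubiquitin ligases and related proteins (Traf, Birc, Peli, Rnf31 and Rbck1) and the ligase cofactor Sharpin. It also held the ubiquitin-conjugating Ube2n with its partner Ube2v1, and the receptor-complex genes Ripk1, Ripk2 and Tradd. Of the 17 genes, 12 rose and 3 fell with zymosan in WT cells. Traf1 was up by 5.75 and Peli1 by 3.77, and Traf5 was at -1.26 and Peli2 at -1.16. Between the genotypes with zymosan 6 were higher and 6 lower in Mcu-/- cells (7 and 8 without untreated Mcu-/- replicate 4), with Traf5 at 1.09, Traf1 at 0.48, Traf3 at -0.37 and Rbck1 at -0.27. None rose and 3 fell with BAPTA-AM, with Traf1 at -0.24 and Ube2n at -0.23 (medians -0.08 between the genotypes and -0.05 with BAPTA-AM). Without untreated Mcu-/- replicate 4, 7 genes of each of these lists fell with BAPTA-AM, beside 16.5% of all genes.

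Of 16 genes of receptors and signalling proteins of zymosan sensing that were tested, 9 rose and 5 fell with zymosan in WT cells (10 and 5 without untreated Mcu-/- replicate 4). Malt1, the scaffold protease below Dectin-1 and Card9, rose by 3.20 and the co-receptor gene Cd14 by 2.32, while Card9 fell by 0.88 and Irak4 by 0.46 on the log2 scale. With zymosan 6 were higher and 6 lower in Mcu-/- cells (7 and 8 without it). Irak2, a kinase-family adaptor below MyD88, was 0.77 and Tlr2, the receptor of zymosan lipopeptides, 0.54 higher, and Tlr1, the partner of Tlr2, was 0.95 and the protein kinase C gene Prkcd 0.78 lower. With BAPTA-AM none rose and 5 fell (2 and 6 without untreated Mcu-/- replicate 4, beside 15.3% and 16.5% of all genes), with Malt1 at 1744 ± 85.2 against 2892 ± 162 (log2 fold change -0.73 ± 0.06, adjusted p = 2.86e-07), and Cd14 lower by 0.37. The medians were -0.04 between the genotypes and 0.03 with BAPTA-AM.

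Among 29 textbook NF-kB target genes tested, 26 rose and 2 fell with zymosan in WT cells. Il12b and Nos2 reached 2127 ± 168 and 715 ± 121 normalized counts from at most 3 and 2 counts in any untreated WT library, and the genes that fell were Plau (-1.19) and Bcl2l1 (-1.08). In Mcu-/- against WT cells with zymosan 17 were higher and 3 lower (22 and 5 without untreated Mcu-/- replicate 4, where 36.4% and 33.7% of all genes were called), led by the neutrophil chemokine Cxcl1 (9235 ± 148 against 229 ± 20.7, log2 fold change 5.33 ± 0.12) and the adhesion molecule Vcam1 (3.93 ± 0.29), with Mmp9, a matrix protease, at -1.59 and Bcl2l1 at -0.32. With BAPTA-AM 1 was higher, Bcl2l1 (0.28), and 12 were lower (1 and 26 without untreated Mcu-/- replicate 4, where 15.3% and 16.5% of all genes were called), led by Il1a (-2.28 ± 0.12) and Il1b (-1.66 ± 0.14). The median of the list was 0.48 in the first contrast and -0.35 in the second, against 0.02 and 0.00 over all genes.

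Between the untreated genotypes 4 of the 29 target genes were higher in Mcu-/- cells and none lower, beside 0.128% and 0.222% of all genes, and 6 were higher and 1 lower without replicate 4, beside 1.53% and 1.83%. Cxcl10, the gene of a chemokine for activated T cells, was at 94.9, 73.4, 92.6 and 98.3 normalized counts in the WT libraries and at 193, 237, 230 and 278 in the Mcu-/- libraries. The groups did not overlap, with a log2 fold change of 1.38 ± 0.10 (adjusted p = 2.14e-07) and 1.30 without replicate 4 (adjusted p = 9.13e-14). The other 3, named after their values were seen because they lie below 10 CPM, were Cxcl2 (16.8 to 28.9 in WT and 48.8 to 71.1 in Mcu-/- cells), Il6 (1 to 8 raw counts in WT and 15 to 21 in Mcu-/- libraries) and Il12b (0 to 3 and 7 to 11 raw counts), which was not called without replicate 4 (adjusted p = 0.0888). The median of the list was 0.64 with replicate 4 and 0.18 without it. No gene of the other 5 lists was called between the untreated genotypes with all libraries, and without replicate 4 Cd14 was called higher and Tnip1, Traf3, Tlr2 and Tlr1 lower. Summed macrophage markers were 14413 to 14773 CPM in untreated Mcu-/- replicates 1 to 3 against 13353 to 13738 CPM in untreated WT cells, osteoclast markers 61.0 to 64.3 against 53.4 to 56.1 CPM and T cell markers 2.12 to 3.14 against 1.46 to 2.02 CPM, each without overlap. Their part in the result was not tested.

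**Figure D5:**
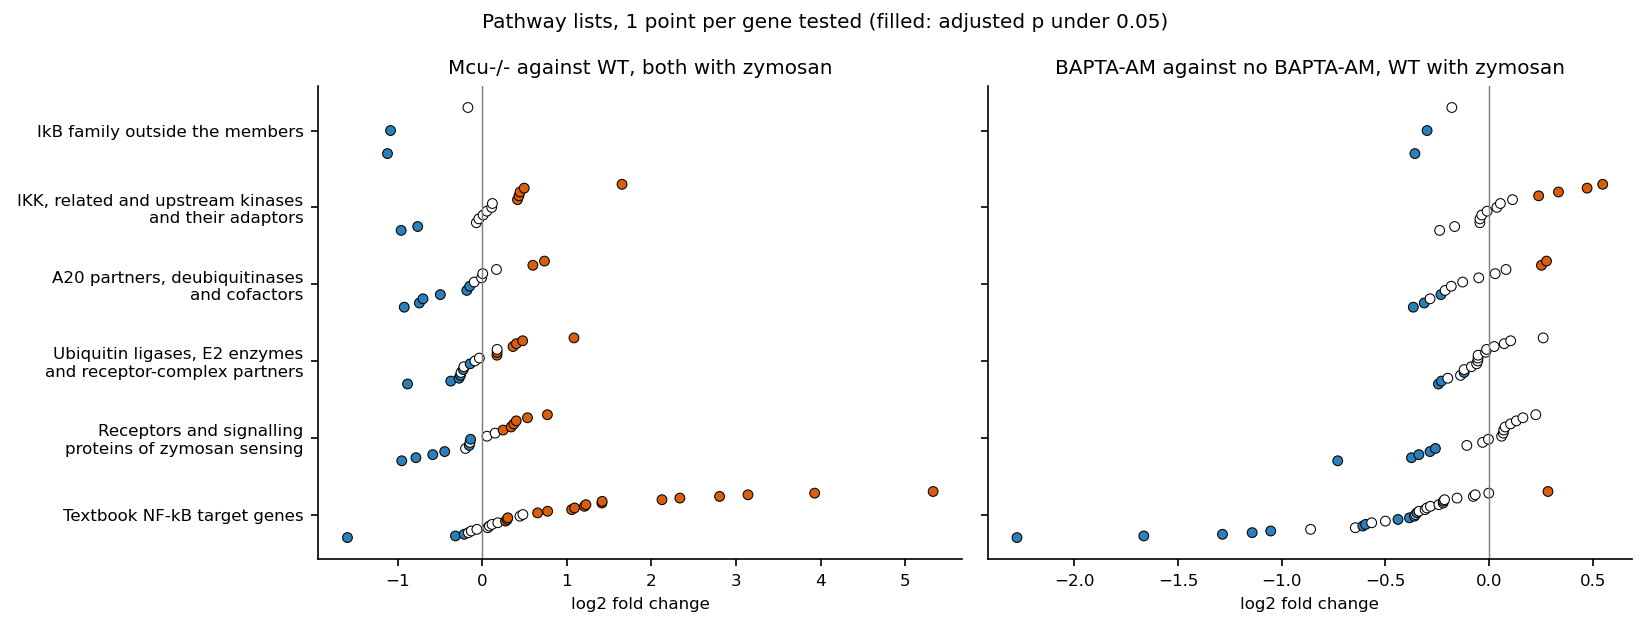
Log2 fold changes of every tested gene of 6 pathway lists, 1 point per gene, in Mcu-/- against WT cells with zymosan (left) and in BAPTA-AM loaded against unloaded WT cells with zymosan (right), with points filled (orange higher, blue lower) for an adjusted p under 0.05. The point farthest to the right is Cxcl1 (5.33) and the one farthest to the left with BAPTA-AM is Il1a (-2.28), and the horizontal scales differ between the panels.

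By likeness of log2 normalized counts over the 20 libraries, the closest other gene was Nr3c1 for Nfkb1, Mapkapk2 for Nfkb2, Tnfaip2 for Rel, Ccl3 for Rela and Pim1 for Relb. It was Cflar for Nfkbia, Gadd45b for Nfkbib, Ccl7 for Nfkbie, Ehd1 for Nfkbiz and Tram2 for Tnfaip3, with Pearson's r from 0.993 to 0.999. The 20 points share the step between untreated and treated libraries, so these values are a description only. Without replicate 4 the closest gene stayed for Nfkb2, Rela, Nfkbib and Nfkbie and was another one for the other 6.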

How the data were processed

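The authors trimmed reads with cutadapt, mapped them to mm10 with STAR, counted them per gene with HTSeq and tested with DESeq2. They deposited 1 table of raw counts, with whole numbers and no normalization, and versions, strand setting and read filters are not given in the sources used here. FastQC and MultiQC are named in the submitters' processing notes. Each column was matched to a sample by title, except that Mcu-/- cells with zymosan have columns 3, 4 and 5 but samples 1 to 3, and were matched as a group. Nothing in the sources says which libraries came from the same mouse, so p-values measure the spread between cultures, and no pair of libraries was alike within sampling noise (mean chi-square per gene 1.60 to 221).

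The deposited counts went into edgeR 4.0.16 under R 4.3.3, with filterByExpr, TMM scaling, and 1 quasi-likelihood fit of all 20 libraries with 1 coefficient per group. Calls were made at a Benjamini-Hochberg adjusted p under 0.05 over all genes tested. A normalized count is the TMM-scaled count in a library of 20617761 counts, the mean depth. For each member, mean log2(normalized count + 0.5) was also put to an exact, two-sided permutation test over libraries. Where treated and untreated cells are compared, scaling by library totals lowers the median of all genes by 0.43 to 0.52 on the log2 scale relative to TMM. DESeq2 1.42.0 served as an alternative, and the procedure was tested on simulated data. Those data had a smaller spread than the fit of all 20 libraries and no library that stood apart. Their changes were larger than those of most members between the genotypes or with BAPTA-AM. The simulation therefore does not show how the fit behaves with replicate 4 or with small differences.

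Lengths came from GENCODE M21 (21710 symbols, 99.4% of counts) and promoters from RefSeq (GRCm38.p6). All members were named, as were, per list and comparison, up to 2 largest rises and falls among called genes of at least 10 CPM (not printed for the interaction and the zymosan responses of Mcu-/- and BAPTA-AM loaded cells), and the closest gene by Pearson's r. Ikbkg, G6pdx, Psd, Ccer2 and Sirt2 were shown by library after their values were seen. Members, lists and tests were chosen with earlier results of these data known.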

Additional observations from a re-analysis of the deposited data

Results flagged for a closer look

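Of the 10 genes, 6 had a value in untreated Mcu-/- replicate 4 that stood apart from the other libraries of its group, by the ratio of the gap to the range. It was the highest for Nfkb2 (1278 normalized counts), Rela (1726), Relb (650), Nfkbie (181) and Tnfaip3 (1890), and the lowest for Nfkbiz (3365). In all, 40 sets of 4 or 5 libraries were examined, chance flags about 1 in 20, and no library outside untreated Mcu-/- replicate 4 was set apart. This rule was run on the members only, so 6 of 10 is not read against all genes. The departure of replicate 4 was not limited to the members. Of the 7276 genes that differed between the genotypes with zymosan, 86.7% were shifted in that direction in it.

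The zymosan response differed between the genotypes by the interaction test for Nfkb1 (0.34 on the log2 scale), Rel (0.32), Nfkbia (0.39) and Nfkbiz (0.50), and all 4 were larger in Mcu-/- cells. Of all genes 15.2% were called higher in this test. Without untreated Mcu-/- replicate 4 the values were 0.32, 0.35, 0.56 and 0.36. The call of Nfkbia was lost under some of the alternative runs named above.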

How the results depend on the processing

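Every member kept its call and direction in the zymosan responses of WT, Mcu-/- and BAPTA-AM loaded WT cells under each alternative run, and the 6 calls between the genotypes with zymosan were never lost, with 6 to 9 called when each library was left out. Between untreated genotypes 0 to 1 member was lower when a library was left out, and the sign turned for Rela (-0.079 to 0.15), Relb (-0.095 to 0.096), Nfkbia (-0.11 to 0.12), Nfkbib (-0.0021 to 0.18) and Tnfaip3 (-0.12 to 0.88). With BAPTA-AM 3 members were lower in the fit reported, 1 (Nfkb2) with library totals, 6 with the groups compared alone and 1 to 6 when a library was left out. Members higher numbered 2 with the groups compared alone and 0 to 1 when a library was left out. With BAPTA-AM, 6.43% of all genes were higher and 6.33% lower in the fit reported. Without untreated Mcu-/- replicate 4 these shares were 15.3% and 16.5%. Shares of all genes are not given for the other alternatives, so counts of members under those are not read against all genes. The log2 fold change of Nfkbib turned to 0.0588 with library totals and 0.0027 with the groups compared alone, and lay from -0.0070 to 0.0052 with a library left out. The interaction was called for 3 to 9 members when a library was left out, that of Relb turned to -0.0090 with library totals and lay from -0.038 to 0.15, and that of Tnfaip3 from -0.68 to 0.32. Per longest transcript, the ratio of IkB to subunit RNA was 0.738 (WT untreated), 1.17 (WT zymosan), 1.23 (BAPTA-AM), 0.802 (Mcu-/- untreated) and 1.43 (Mcu-/- zymosan). The causes were not tested.

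Replicate numbers did not pair the samples, with correlations of deviations from -0.06 to 0.07 between libraries of the same number. With the replicate block, possible only among the 17 libraries outside Mcu-/- zymosan, 1 member (Nfkb2) was lower with BAPTA-AM and Nfkbib stood at 0.0022. Depth limits few values, since the lowest member, Nfkbie in untreated WT cells, had 32.5 to 52.9 normalized counts.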

Other observations

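Markers of some other cell types were present at low levels. Summed B cell markers were 13.0 to 55.8 CPM over the libraries, nearly all of it Cd79b, endothelial markers 25.9 to 56.1 CPM (mostly Pecam1), osteoclast markers 24.7 to 118 CPM (mostly Acp5), dendritic cell markers 0.60 to 11.5 CPM (mostly Xcr1) and T cell markers 1.37 to 9.52 CPM (mostly Cd28). Cd209a, Cd8a, Ncr1 and Fcer1a, markers of dendritic, T, NK and mast cells, were at 0 in every library. Untreated Mcu-/- replicate 4 had the highest T cell value and the lowest endothelial and osteoclast values. Over the 20 libraries the members followed each other closely, with Pearson's r of log2 normalized counts from 0.929 between Nfkbiz and Tnfaip3 to 0.998 between Nfkbia and Nfkbib, as a description.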
